A study of Mus musculus with 8 samples.

Results

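Chemokine receptors are G protein-coupled receptors by which leukocytes sense gradients of chemokines, and in macrophages and their monocyte precursors they steer entry into tissue and position within it. The values are those of 9 such genes in tumor-associated macrophages (TAMs): the CC receptors Ccr1, Ccr2, Ccr3 and Ccr7, the CXC receptors Cxcr2, Cxcr3 and Cxcr4, the fractalkine receptor Cx3cr1 and the atypical receptor Ccrl2. They were found by their exact symbols, and make up 9 of the 21051 genes listed in the deposited tables. Most chemokine receptors signal through Gi proteins, phosphoinositide 3-kinase and small GTPases that move the cytoskeleton. Ccrl2 instead binds chemerin without classical signaling and presents it to neighboring cells.

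TAMs were taken by flow sorting of CD45+F4/80+ cells on day 14 after injection of B16 cells, a pigmented mouse melanoma line. TAM-WT came from 4 wild-type C57BL/6 mice and TAM-KO from 4 C57BL/6 mice in which both copies of Colec11 are disrupted. Colec11 encodes the collectin CL-11, a secreted lectin of innate immunity, and its loss extends to the whole animal rather than to macrophages. According to the study's methods the wild-type mice were littermates of a backcrossed knockout line, and young adult males were used unless stated otherwise. Each mouse gave 1 library, with 16225362 to 17280267 reads on genes in the 7 libraries with complete tables. The 12572 genes measured in every library held from 10061535 to 10607640 reads. Colec11 itself had 0 to 4 reads in the 8 libraries, too few to check the genotype in these cells. Macrophage genes were abundant in both groups: the complement gene C1qa stood at 1613 to 2108 FPKM in TAM-WT and 2057 to 2161 FPKM in TAM-KO replicates 2 to 4. In edgeR's test 0 of the 8 macrophage markers passed, and the 2 at an unadjusted p under 0.05, Cd68 and Mertk, had negative log2 fold changes. Cd68, a lysosomal protein of macrophages, was at 1825 to 2312 FPKM in TAM-WT and 1337 to 1859 FPKM in TAM-KO replicates 2 to 4 (log2 fold change -0.55, edgeR adjusted p = 0.0732, DESeq2 adjusted p = 0.0169). RNA of the tumor cells was present as well, since the summed melanoma markers ran from 1910 to 4310 FPKM in TAM-WT and from 3730 to 4980 FPKM in TAM-KO. All 6 markers had positive log2 fold changes, and 5 had an unadjusted p under 0.05 in edgeR's test, against 30.7% of all genes. Of the 6, 1 passed (16.7%, beside 9.81% of all genes), Sox10 (log2 fold change 0.76, edgeR adjusted p = 0.0295). The part of tumor RNA in the receptor values was not tested. Fewer cells of a type and less RNA per cell cannot be told apart in such bulk samples.

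The table of TAM-KO replicate 1 lacks a run of 5311 genes, and of the 9 receptors only Ccrl2 is in it. For Ccr3, Cx3cr1, Cxcr2 and Cxcr4 its value was taken from the table of the whole series, so that 4 TAM-KO values are given, while the test ran on the other 3 TAM-KO libraries. Ccr1, Ccr2, Ccr7 and Cxcr3 have 3 TAM-KO values in all. The series table lists genes that differ between the groups, so the presence of a value there is itself selected.

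Of the 9 genes, 5 lie on chromosome 9 of GRCm38.p6, where Ccr1 (chr9:123962126-123968692), Ccr3 (chr9:124017825-124031692) and Ccr2 (chr9:124101918-124109140) stand in a receptor cluster. Ccrl2 (chr9:111054834-111057518) and Cx3cr1 (chr9:120048683-120068296) lie outside it. Cxcr2 (chr1:74153994-74161246) and Cxcr4 (chr1:128588199-128592299) are on chromosome 1, Ccr7 (chr11:99144199-99155077) on chromosome 11 and Cxcr3 (chrX:101731535-101734147) on the X chromosome. In the GENCODE annotation, 6 of the 9 genes hold their coding sequence in 1 exon, while Cxcr4 and Cxcr3 use 2 coding exons and Ccr7 uses 3. Cx3cr1 overlaps the long noncoding RNA Gm33858. The strand setting of the counting is not given in the sources used here, so reads of the overlapping transcripts cannot be told apart.

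The promoters of Ccrl2 and Cx3cr1 are shown because these genes had the most negative and the most positive log2 fold change among the 9 in the edgeR fit on the sample tables. Cxcr2 was more positive than Cx3cr1 with TAM-KO replicate 1 filled from the series table, and also when the library left out was replicate 3 of TAM-WT or replicate 2 or 3 of TAM-KO. Each run holds the 250 bases before a transcript start, from RefSeq sequence of GRCm38.p6, 5′ to 3′ on the minus strand. The capitals in the Ccrl2 window (chr9:111057519-111057768) mark the core of a hypoxia response element, ACGTG read on the other strand. The Cx3cr1 window (chr9:120068297-120068546) held none of the motifs searched.
Ccrl2: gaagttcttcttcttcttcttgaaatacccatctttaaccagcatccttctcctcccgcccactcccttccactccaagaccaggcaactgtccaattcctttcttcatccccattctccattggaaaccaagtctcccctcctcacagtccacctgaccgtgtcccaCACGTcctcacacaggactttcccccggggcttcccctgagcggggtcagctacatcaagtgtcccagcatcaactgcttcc
Cx3cr1: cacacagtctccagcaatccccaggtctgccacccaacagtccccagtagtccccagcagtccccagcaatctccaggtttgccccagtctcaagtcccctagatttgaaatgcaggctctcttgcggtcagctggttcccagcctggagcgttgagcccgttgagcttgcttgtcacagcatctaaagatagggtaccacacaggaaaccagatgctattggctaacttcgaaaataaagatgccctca
RefSeq windows were found for 8 of the 9 genes, 10 windows in all, with no entry for Ccr7. The hypoxia core, a PU.1 motif, an NF-kB motif and an interferon response element were searched on both strands. The hypoxia core ACGTG, whose letters also sit inside the E-box CACGTG, was in each of the 3 Ccrl2 windows and in no other receptor's, against 16.6% of 32851 promoters. Of the 3 Ccrl2 windows, 2 overlap and hold the same site, so that the 3 hold 2 distinct sites. The PU.1 motif AGGAAGT stood at 2 places before Cxcr3, against 7.69% of promoters. The NF-kB motif was in the window of Ccr3, against 1.41% of promoters, and the interferon element in 0 of the 10 windows, against 2.98%. These are matches of letters in a window, and binding was not measured.

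Ordered by their mean over the 7 complete libraries, the receptors spanned from 67.1 FPKM for Ccrl2 to 0.311 FPKM for Cxcr2. Ccrl2, Ccr1 (57.6 FPKM), Cxcr4 (57.6 FPKM) and Ccr2 (47.9 FPKM) formed an upper level within which neighbors overlapped over libraries. Cx3cr1 (17.1 FPKM) lay below Ccr2 in 7 of 7 libraries, with ranges that did not overlap. Ccr7 (5.46 FPKM) was below Cx3cr1 in 7 of 7 libraries although their ranges overlapped. Cxcr3 (2.29 FPKM) lay below Ccr7 without overlap, and its range overlapped that of Ccr3 (1.85 FPKM). Cxcr2 was below Ccr3 in every one of these libraries. FPKM values are per gene length, which allows this comparison between genes.

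**Figure D1:**
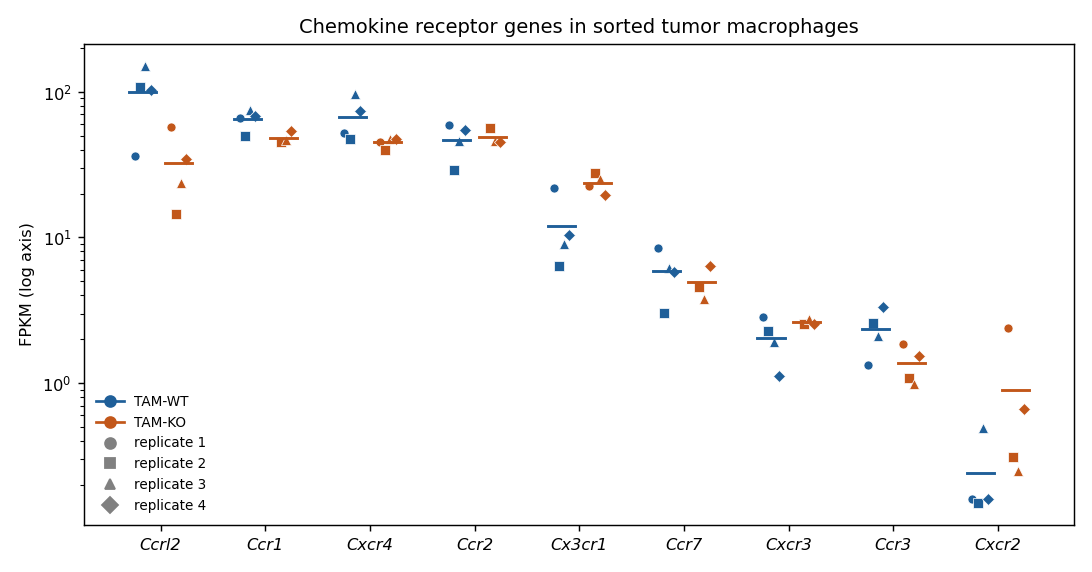
FPKM on a log axis of the 9 receptor genes in each TAM-WT (blue) and TAM-KO (orange) library, with replicates by symbol and a bar at the group mean. Ccrl2 in TAM-WT replicate 1 lies at 35.9 FPKM among the TAM-KO values, and Cxcr2 in TAM-KO replicate 1 stands apart at 2.37 FPKM.

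In edgeR's quasi-likelihood test with Benjamini-Hochberg adjustment, 0 of the 9 receptors passed an adjusted p of at most 0.05, where 9.81% of the 12412 genes tested passed. All 9 were above the filter on low counts. At an unadjusted p under 0.05 there were 5 of the 9, against 30.7% of all genes, namely Ccrl2, Ccr3, Cxcr4 and Ccr1, with negative log2 fold changes, and Cx3cr1, with a positive one. DESeq2's Wald test passed 3 of the 9, against 18.2% of genes, all 3 lower in TAM-KO, against 9.44% of genes lower, and limma on log2(FPKM + 1) passed 0 of the 9, against 10.7%. The FPKM ranges of the groups overlapped for all 9 receptors, while they did not overlap for 18.9% of genes. The median log2 fold change of the 9, TAM-KO minus TAM-WT, was -0.36, beside 0.0 over all genes.

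**Figure D2:**
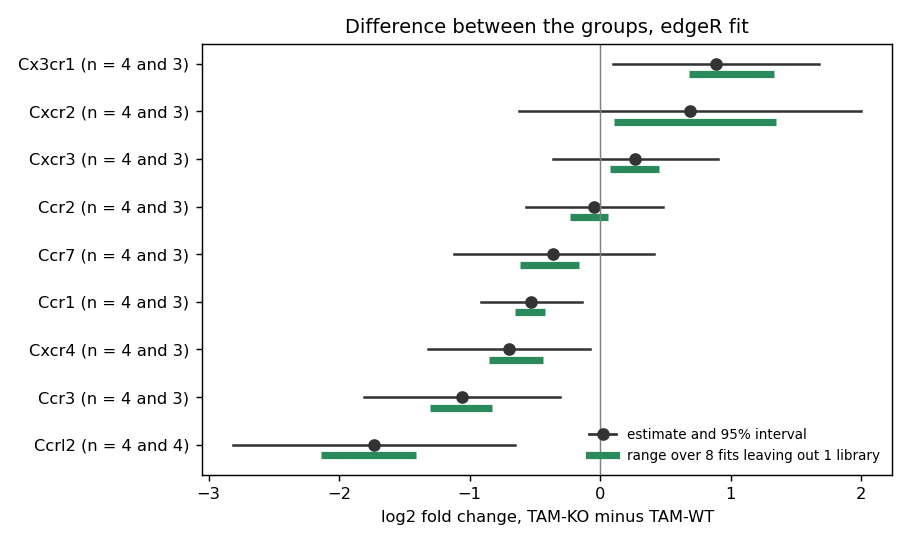
Log2 fold change of each receptor, TAM-KO minus TAM-WT, with its 95% interval (black) from the edgeR fit and the range of estimates over the 8 fits that each left out 1 library (green); n is the number of TAM-WT and TAM-KO libraries tested. The intervals of Ccrl2, Ccr3, Cxcr4, Ccr1 and Cx3cr1 exclude 0, and the range of Ccr2 crosses it.

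In the edgeR fit on the sample tables, Ccrl2 had the largest log2 fold change of the 9 in absolute size, while Cxcr2 exceeded it, at 1.81 against -1.73, once TAM-KO replicate 1 was filled from the series table. The Ccrl2 level was 35.9, 108, 150.5 and 102 FPKM in TAM-WT replicates 1 to 4 and 57.0, 14.6, 23.5 and 34.7 FPKM in TAM-KO replicates 1 to 4. TAM-WT replicates 2, 3 and 4 lay above every TAM-KO library, and TAM-WT replicate 1 lay between TAM-KO replicates 4 and 1. The means were 99.2 ± 47.3 and 32.4 ± 18.3 FPKM (SD, n = 4 each), and the log2 fold change was -1.73 ± 0.48 (SE) (95% interval -2.81 to -0.65). The adjusted p of 0.0506 from edgeR's quasi-likelihood test lay just above the threshold. It was 0.0213 without TAM-WT replicate 1, 0.0427 without TAM-WT replicate 2 and 0.0497 without TAM-KO replicate 1 by the same edgeR test, and up to 0.143 in the fits that left out another library. DESeq2 gave an adjusted p of 0.0228 for Ccrl2.

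The eosinophil and inflammatory CC receptors Ccr3 and Ccr1 were lower on average in TAM-KO as well. Ccr1, a receptor for Ccl3, Ccl6 and Ccl9 on monocytes and macrophages, was at 65.9, 49.6, 74.3 and 68.3 FPKM in TAM-WT and 45.1, 46.5 and 53.7 FPKM in TAM-KO replicates 2 to 4. TAM-WT replicate 2 fell among the TAM-KO values, and the other TAM-WT libraries lay above them. The log2 fold change was -0.53 ± 0.17 (SE), from 64.5 ± 10.5 (SD, n = 4) to 48.4 ± 4.62 FPKM (SD, n = 3), with edgeR adjusted p = 0.0797. Without TAM-WT replicate 2 the adjusted p of Ccr1 was 0.011 in the same edgeR test. That was the 1 fit passed of the 8 that each left out 1 library, and the highest edgeR adjusted p among them was 0.245. DESeq2 gave 0.0314 for Ccr1 on 3 TAM-KO libraries.

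Ccr3, the eotaxin receptor of eosinophils, was low, at 1.34, 2.60, 2.09 and 3.31 FPKM in TAM-WT and 1.85, 1.09, 0.98 and 1.53 FPKM in TAM-KO. TAM-WT replicate 1 lay inside the TAM-KO range and the other TAM-WT libraries above it. The fitted log2 fold change was -1.06 ± 0.33 (SE), with edgeR adjusted p = 0.0735 on 3 TAM-KO libraries. With TAM-KO replicate 1 filled from the series table it was -0.88, with edgeR adjusted p = 0.0918, and without TAM-WT replicate 1 it was -1.26, with edgeR adjusted p = 0.0286. Ccr3 passed in 1 of the 8 fits that each left out 1 library, with a highest edgeR adjusted p of 0.224. DESeq2's adjusted p for Ccr3 was 0.0172. Of the eosinophil markers, Siglecf was at 0.15 to 0.60 FPKM and Il5ra at 0.02 FPKM or less in every library, while Epx and Prg2 had no value. The summed eosinophil markers ran from 0.44 to 1.44 FPKM in TAM-WT and from 0.16 to 0.56 FPKM in TAM-KO, and their part in the Ccr3 values was not tested.

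Cxcr4, the receptor for Cxcl12, which holds leukocytes in bone marrow and perivascular sites, was at 52.3, 47.2, 95.9 and 73.4 FPKM in TAM-WT. In TAM-KO it was at 45.4, 40.0, 47.7 and 47.1 FPKM. The TAM-KO libraries were close together and TAM-WT replicate 2 lay within their range. The means were 67.2 ± 22.2 and 45.0 ± 3.51 FPKM (SD, n = 4 each), with a log2 fold change of -0.70 ± 0.27 (SE) and edgeR adjusted p = 0.125 on 3 TAM-KO libraries. The adjusted p was 0.0394 without TAM-WT replicate 2 in the same edgeR test. Cxcr4 passed in 1 of the 8 fits that each left out 1 library, with a highest edgeR adjusted p of 0.325.

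Cx3cr1, the fractalkine receptor of patrolling monocytes and resident macrophages, had a positive difference. It was at 21.9, 6.40, 9.02 and 10.4 FPKM in TAM-WT and 22.4, 27.5, 25.0 and 19.5 FPKM in TAM-KO. TAM-WT replicate 1 reached the TAM-KO range and the other TAM-WT libraries were all below it. The means were 11.9 ± 6.84 and 23.6 ± 3.42 FPKM (SD, n = 4 each), and the log2 fold change was 0.89 ± 0.34 (SE), with edgeR adjusted p = 0.125 on 3 TAM-KO libraries. Without TAM-WT replicate 1 the log2 fold change of Cx3cr1 was 1.33 and the adjusted p 0.0139 from edgeR. Cx3cr1 passed in 1 of the 8 fits that each left out 1 library, with a highest edgeR adjusted p of 0.294.

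Ccr2, the receptor for Ccl2 that releases inflammatory monocytes from bone marrow, did not differ beyond the spread between mice. It was at 59.1, 28.9, 45.6 and 54.3 FPKM in TAM-WT and 56.4, 45.8 and 45.1 FPKM in TAM-KO replicates 2 to 4. TAM-WT replicate 2 was the lowest library and the TAM-KO values lay inside the TAM-WT range. The log2 fold change was -0.05 with a 95% interval from -0.57 to 0.48 (edgeR adjusted p = 0.917), and its sign turned in some other fits, as under scaling to total reads, where it was 0.07. Among 9 monocyte markers, 4 passed in edgeR's test, 3 higher and 1 lower in TAM-KO (44.4%, beside 9.81% of all genes). Ly6c2 and Plac8 were among the higher ones, and Fn1 was the lower one. Ly6c2, a surface antigen of inflammatory monocytes, was at 12.04 to 54.2 FPKM in TAM-WT and 78.4 to 161 FPKM in TAM-KO (log2 fold change 1.79, edgeR adjusted p = 0.044), and it passed in 2 of the 8 leave-one-out fits. Fn1, which encodes fibronectin, was at 161 to 361 FPKM in TAM-WT and 60.3 to 121 FPKM in TAM-KO (log2 fold change -1.63, edgeR adjusted p = 0.0338). The sum of the 8 monocyte markers measured in every library overlapped, at 353 to 644 FPKM in TAM-WT and 423 to 524 FPKM in TAM-KO. Its part in the Ccr2 and Cx3cr1 values was not tested.

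Ccr7, which guides mature dendritic cells and naive T cells to lymph nodes, was at 8.44, 3.04, 6.18 and 5.81 FPKM in TAM-WT and 4.59, 3.80 and 6.34 FPKM in TAM-KO replicates 2 to 4. All TAM-KO values lay within the TAM-WT range. The log2 fold change was -0.36, with a 95% interval from -1.12 to 0.41 and edgeR adjusted p = 0.505. Among 11 dendritic cell markers, 1 passed, the receptor gene Xcr1 (9.09%, beside 9.81% of all genes). The summed level of 8 of these markers ran from 12.5 to 27.1 FPKM in TAM-WT and from 17.3 to 32.7 FPKM in TAM-KO.

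Cxcr3, the receptor of Cxcl9 and Cxcl10 on activated T cells and NK cells, was at 2.84, 2.28, 1.92 and 1.12 FPKM in TAM-WT and 2.53, 2.77 and 2.56 FPKM in TAM-KO replicates 2 to 4. The TAM-KO values lay close together inside the TAM-WT range. The log2 fold change was 0.27, with a 95% interval from -0.36 to 0.90 and edgeR adjusted p = 0.542. Summed over 10 T cell markers, the level ran from 4.41 to 20.5 FPKM in TAM-WT and from 22.8 to 58.4 FPKM in TAM-KO replicates 2 to 4, with the highest TAM-WT value in replicate 1. Of these 10 markers 1 passed in edgeR's test, Cd2, which was higher in TAM-KO, beside 9.81% of all genes. At an unadjusted p under 0.05 there were 9 of the 10, against 30.7% of all genes. The median log2 fold change of the 10 was 2.43, with 8 positive and 2 negative, Cd4 and Cd28. With TAM-KO replicate 1 filled from the series table, Lck, Cd8a and Cd8b1 were also under the threshold (edgeR adjusted p = 0.0419, 0.0464 and 0.0428). Of 7 NK cell markers 3 were tested, and 1 passed, Eomes, which was higher in TAM-KO (33.3%, beside 9.81% of all genes). The 7 summed to 0.17 to 5.16 FPKM in TAM-WT and 3.12 to 14.0 FPKM in TAM-KO replicates 2 to 4.

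Cxcr2, the neutrophil receptor of Cxcl1 and Cxcl2, had the lowest mean of the 9 over the 7 complete libraries. In TAM-KO replicate 1, which is not among them, it lay above Ccr3. Its values were 0.16, 0.15, 0.49 and 0.16 FPKM in TAM-WT and 2.37, 0.31, 0.25 and 0.66 FPKM in TAM-KO. These rest on 7 to 23 reads in each TAM-WT library and 12 to 115 reads in each TAM-KO library. The estimated counts per gene were not whole in 7 of 8 libraries, so some reads were not assigned by RSEM to Cxcr2 alone and the level is uncertain. TAM-KO replicate 1 was high and TAM-WT replicate 3 lay between the TAM-KO values. The log2 fold change was 0.69 (95% interval -0.62 to 2.00, edgeR adjusted p = 0.45) without TAM-KO replicate 1, and 1.81 (edgeR adjusted p = 0.156) with its value filled in. In the same library the neutrophil gene S100a8 was at 73.5 FPKM, against 2.57 to 5.54 FPKM in TAM-WT and 9.13 to 15.8 FPKM in the other TAM-KO libraries, and its partner S100a9 was at 80.03 FPKM, against at most 4.37 FPKM in TAM-WT and 5.09 to 13.3 FPKM in the other TAM-KO libraries. Among the other neutrophil markers, Retnlg was at 6.19 FPKM there, against at most 1.68 FPKM in the other libraries. Csf3r was at 33.6 FPKM, against 13.1 to 23.02 FPKM in TAM-WT and 24.02 to 32.4 FPKM in the other TAM-KO libraries. Ltf was at 0.16 FPKM, against at most 0.09 FPKM in the other libraries. Mmp8 was not raised above TAM-WT there, at 17.9 FPKM against 17.6 to 45.7 FPKM, and the defining surface marker Ly6g was listed at 0. The sum of the 7 neutrophil markers measured in every library was 211 FPKM there, most of it from S100a8 and S100a9, and 47.1 to 73.8 FPKM in the other 7 libraries. The granule genes Mpo and Ngp were listed at 0 in those 7 libraries and have no value in TAM-KO replicate 1. The part of these genes in the Cxcr2 values was not tested.

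**Figure D3:**
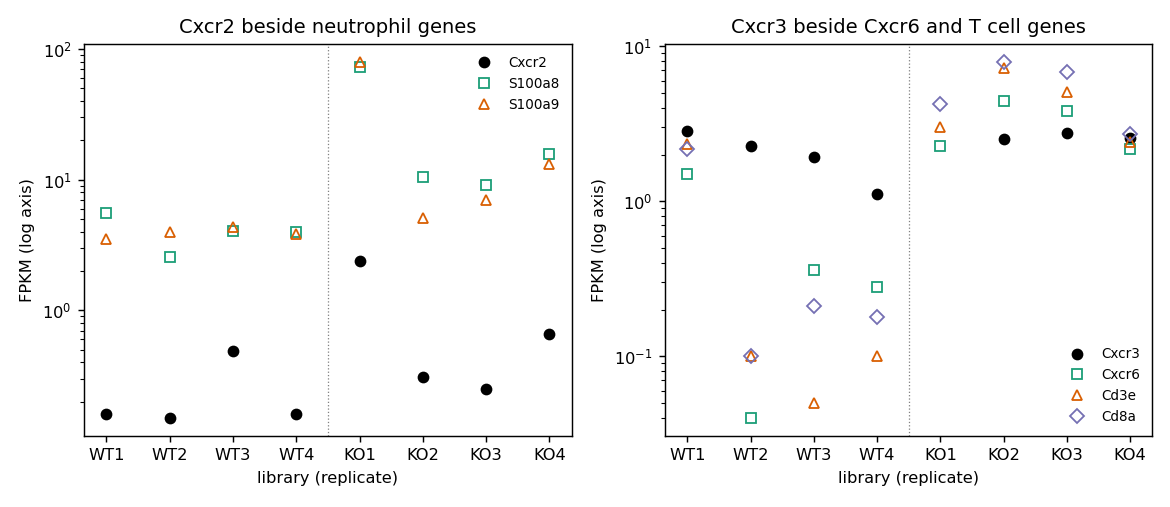
FPKM on a log axis in each library of Cxcr2 with the neutrophil genes S100a8 and S100a9 (left) and of Cxcr3 with Cxcr6 and the T cell genes Cd3e and Cd8a (right). In TAM-KO replicate 1 Cxcr2 is at 2.37 and S100a8 at 73.5 FPKM, while Cxcr6 lies below Cxcr3 in the TAM-WT libraries.

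Within TAM-WT, replicate 2 was the lowest TAM-WT library for 6 of the 9 receptors and replicate 1 or replicate 3 the highest for 4 each. Replicate 2 had the highest summed melanoma markers of its group, at 4310 FPKM against 1910 to 2580 FPKM in the other TAM-WT libraries. It also had the lowest Ptprc, which encodes CD45, at 39.1 against 54.7 to 67.7 FPKM. The part of these in the receptor values was not tested. Without TAM-WT replicate 2, edgeR's test passed 3 of the 9 receptors, Ccrl2, Ccr1 and Cxcr4, against 22.2% of all genes. Without TAM-WT replicate 1 it passed Ccrl2, Ccr3 and Cx3cr1, against 9.31%.

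Genes whose profile over the 7 complete libraries was nearest to that of each receptor were ranked by the root mean square difference of centred log2 CPM (reads scaled to library size), over 11938 candidate genes (11939 for Cxcr2). Nearest to Ccrl2, whose own spread was 1.24, were Plk2 (0.14), Tnfaip3 (0.16) and Tnf (0.26). Tnfaip3 encodes the NF-kB inhibitor A20 and Tnf a proinflammatory cytokine. All were low in TAM-WT replicate 1 and in the TAM-KO libraries. Around Cx3cr1, with a spread of 0.70, were Zmynd15 (0.14), Hrh2 (0.16), a histamine receptor, and the MHC class I gene H2-Q7 (0.17).

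**Figure D4:**
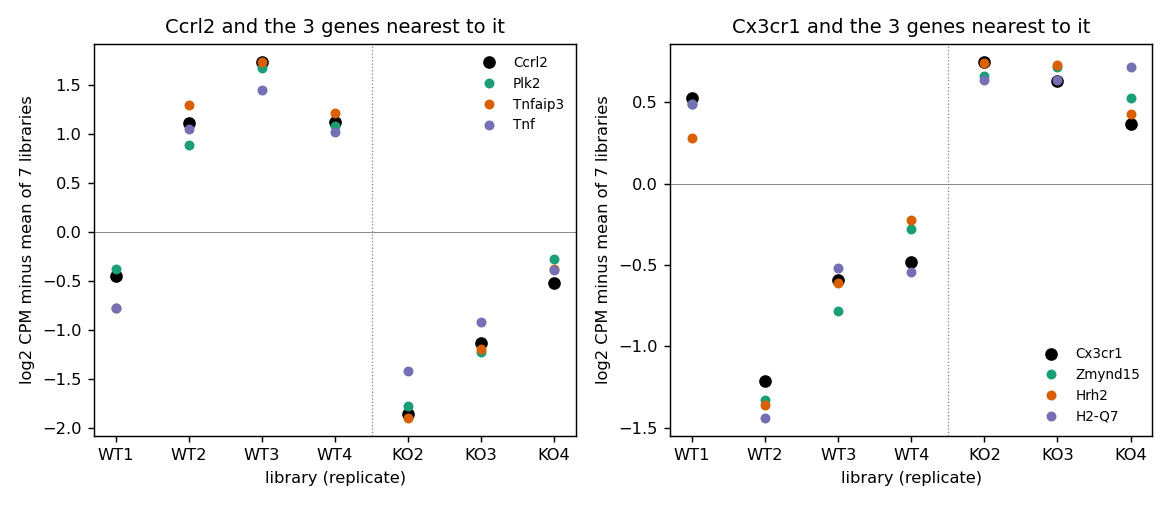
Log2 CPM minus the mean of the 7 complete libraries for Ccrl2 (left) and Cx3cr1 (right), each with the 3 genes nearest to it. Ccrl2 runs from 1.74 in TAM-WT replicate 3 to -1.86 in TAM-KO replicate 2, and Cx3cr1 from -1.21 in TAM-WT replicate 2 to 0.75 in TAM-KO replicate 2.

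Cxcr4 (spread 0.48) was nearest to Btg1 (0.09), Srgn (0.10) and Xylt1 (0.11), and Ccr1 (spread 0.34) to Arid3b (0.04), Raph1 (0.05) and Socs6 (0.06). For Ccr2 the nearest were Rtl5 (0.10), Hgf (0.11) and Pdgfb (0.11), for Ccr7 Ptgir (0.19), Arrdc4 (0.21) and Mcf2l (0.22), and for Ccr3 H3c15 (0.19), Hic2 (0.19) and Junb (0.22). Cxcr3 had Zfp974 (0.13), Cuedc1 (0.13) and Neurl1a (0.14), and the low gene Cxcr2 had more distant neighbors, Fxyd2 (0.35), Ecm1 (0.44) and Spint1 (0.46). The libraries share depth and group, and these distances are a description over 7 libraries.

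RNA of the ligands was abundant in these libraries for some receptors and at or near 0 for others. Of 23 ligand genes 15 were tested, and 4 passed in edgeR's test, 1 higher and 3 lower in TAM-KO (26.7%, beside 9.81% of all genes), with a median log2 fold change of -1.10. Cxcl10, a ligand of Cxcr3, rose, from 119, 96.1, 92.4 and 134 FPKM in TAM-WT to 184, 204, 301 and 169 FPKM in TAM-KO. All TAM-KO libraries lay above all TAM-WT libraries, and the log2 fold change was 0.92 ± 0.20 (SE) (edgeR adjusted p = 0.0324 on 3 TAM-KO libraries). It passed in 5 of the 8 leave-one-out fits. The 3 that fell were Ccl6 and Ccl3, which bind Ccr1, and Ccl12, which binds Ccr2, by 1.27, 1.10 and 1.12 on the log2 scale (edgeR adjusted p = 0.0305, 0.0488 and 0.0295). They passed in 5, 3 and 4 of the 8 leave-one-out fits. Ccl2, the main ligand of Ccr2, was at 1023 to 1498 FPKM in TAM-WT and 555 to 1194 FPKM in TAM-KO (edgeR adjusted p = 0.102), and Ccl8 at 545 to 1029 and 596 to 983 FPKM (edgeR adjusted p = 0.97). Of the Cxcr2 ligands, Cxcl2 was at 198 to 1386 FPKM in TAM-WT and 76.3 to 779 FPKM in TAM-KO. Cxcl2 and Cxcl1 had log2 fold changes of -1.55 and -3.38 (edgeR adjusted p = 0.188 and 0.0647). Ccl5 and Cxcl9 went the other way, by 1.38 and 2.38 (edgeR adjusted p = 0.0537 and 0.137). Of the 15 ligands tested, 11 had negative and 4 positive log2 fold changes. By contrast Cxcl12 (Cxcr4) was at 0.07 FPKM or less and Cx3cl1 (Cx3cr1) at 0.37 FPKM or less in every library. The chemerin gene Rarres2 (Ccrl2) was at 0.13 FPKM or less in every library. Of the Ccr3 ligands, Ccl11 was at 0.21 FPKM or less in every library. Another, Ccl24, was at 6.38 to 25.9 FPKM in TAM-WT and 1.64 to 7.77 FPKM in TAM-KO (log2 fold change -1.74, edgeR adjusted p = 0.0696).

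Among 36 genes of the signaling machinery below the receptors, 7 passed in edgeR's test (19.4%, beside 9.81% of all genes). Of the 7, 1 was higher and 6 were lower in TAM-KO, and the median log2 fold change of the 36 was -0.07. Pik3cg, the catalytic subunit of the phosphoinositide 3-kinase that G beta-gamma subunits activate, fell, from 26.2, 20.3, 20.9 and 21.7 FPKM in TAM-WT to 13.4, 14.0, 14.4 and 14.6 FPKM in TAM-KO. The groups did not overlap, the log2 fold change was -0.80 ± 0.09 (SE) (edgeR adjusted p = 0.00402), and the gene passed in 8 of the 8 leave-one-out fits. The regulators of G protein signaling Rgs1, Rgs2 and Rgs18, which speed the shutdown of G alpha subunits, fell by 1.34, 1.04 and 1.68 on the log2 scale (edgeR adjusted p = 0.0322, 0.0323 and 0.0183). Rgs18 was at 5.63 to 8.82 FPKM in TAM-WT and 1.58 to 3.95 FPKM in TAM-KO, without overlap. Rgs1 and Rgs2 overlapped through TAM-WT replicate 1 and TAM-KO replicate 1, and each passed in 3 of the 8 leave-one-out fits. The G protein subunits Gng2 and Gnai3 fell by 0.52 and 0.37 on the log2 scale (edgeR adjusted p = 0.0329 and 0.0415), each tested on 3 TAM-KO libraries. Plcb3, a phospholipase C, rose by 0.24 on the log2 scale (edgeR adjusted p = 0.0442). Gnai2, the most abundant Gi gene here, was at 505 to 599 FPKM in TAM-WT and 494 to 552 FPKM in TAM-KO replicates 2 to 4 (edgeR adjusted p = 0.193).

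Of 16 other chemokine receptor genes 7 were tested, and 2 passed, both higher in TAM-KO (28.6%, beside 9.81% of all genes). Cxcr6, found on activated T cells and NK cells, was at 1.51, 0.04, 0.36 and 0.28 FPKM in TAM-WT and 2.26, 4.41, 3.85 and 2.18 FPKM in TAM-KO. The log2 fold change was 2.43 ± 0.61 (SE) (edgeR adjusted p = 0.0405). Xcr1, a receptor of cross-presenting dendritic cells, was at 0.34, 0.10, 0.06 and 0.22 FPKM in TAM-WT and 0.52, 0.92, 0.83 and 0.37 FPKM in TAM-KO, with a log2 fold change of 1.78 and edgeR adjusted p = 0.0435. For both genes every TAM-KO library lay above every TAM-WT library, and each passed in 3 of the 8 leave-one-out fits. The T cell, NK cell and dendritic cell marker values given beside Cxcr3 and Ccr7 apply. Cmklr1, the signaling receptor for chemerin, was at 38.5 to 46.9 FPKM in TAM-WT and 47.9 to 59.9 FPKM in TAM-KO replicates 2 to 4 (log2 fold change 0.15, edgeR adjusted p = 0.432).

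Of the genes that passed in the lists of ligands, signaling genes and other receptors, Pik3cg alone passed in each of the 8 leave-one-out fits. For each of the others the call was lost when TAM-WT replicate 3 was left out, and likewise for replicate 2 or 3 of TAM-KO, and for some when a further library was left out. Their highest edgeR adjusted p over these fits ran from 0.068 for Rgs18 to 0.153 for Gnai3.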

How the data were processed

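RNA of sorted TAMs was sequenced on BGISEQ-500 (4 TAM-WT, 4 TAM-KO; groups and replicate numbers from the labels). The submitters' processing notes name HISAT2 2.0.4, Bowtie2 2.2.5, RSEM 1.2.12 and GRCm38.p6. The authors deposited expected counts per gene, estimated by RSEM without normalization, and FPKM, scaled to gene length and mapped reads. TPM and the authors' columns of log2 ratios, p-values and q-values were not used.

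The table of TAM-KO replicate 1 lacks 5311 genes. A further 629 of its values stood beside the wrong genes and were not used: 170 of 170 that could be compared equaled the value of another gene within 0.01. The series table fills 1188 of the 4214 genes without a usable value. These filled values enter FPKM means but not the test.

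Rounded expected counts were tested with edgeR 4.0.16 under R 4.3.3 (filterByExpr, TMM, glmQLFit, glmQLFTest). Genes were fitted on 8 libraries, or on 7 where TAM-KO replicate 1 had no value in its own table, with Benjamini-Hochberg adjustment over all 12412 genes. Passed means an adjusted p of at most 0.05. In simulated counts for this comparison (12436 genes tested), 100% of 200 genes changed 4-fold were called, with 13 unchanged genes. The simulation gave every gene the same dispersion and changed only genes above a set mean count. It therefore checks that the fit runs and does not measure its power or error rate in these libraries. Alternatives used DESeq2 1.42.0, limma 3.58.1, other scalings and filters, a replicate block and each library left out.

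The 9 receptors and the lists were chosen with earlier results of these data known. Named genes were the 9, list members that passed or are ligands of a receptor, the 3 genes nearest to each receptor among those of at least 1 CPM, and leading markers. Other named genes were chosen after their values were seen. The values of 1 monocyte marker are not reported here.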

Additional observations from a re-analysis of the deposited data

Results flagged for a closer look

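Cxcr2 in TAM-WT replicate 3 was at 0.49 FPKM while the other TAM-WT libraries lay at 0.15 to 0.16 FPKM. The gap to the nearest of them was 0.971 of the group's range. Over the 25 groups of 4 values compared, this was the 1 value that stood apart from its group, where chance gives about 1.25.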

How the results depend on the processing

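The number of receptors that passed, 0 of 9 in edgeR's test, was 1 with scaling to total reads (Ccrl2) or with no filter on low counts (Ccrl2), 3 with DESeq2 (Ccrl2, Ccr1 and Ccr3) and from 0 to 3 when 1 library was left out. For all genes, the 1218 that passed became 36 at an adjusted p of at most 0.01 and 2253 with DESeq2, and ran from 77 to 2755 without 1 library. Ligands (4 passed) came to 0 at an adjusted p of at most 0.01 and 9 with DESeq2, with 0 to 8 without 1 library. Other receptors (2 passed) came to 0 at the stricter threshold, 0 with at least 10 counts in every library and 1 with TAM-KO replicate 1 filled, with 0 to 3 without 1 library. Signaling genes (7 passed) came to 1 at the stricter threshold and 11 with DESeq2, with 1 to 14 without 1 library. Over 152 comparisons of a receptor's log2 fold change between edgeR's test and 17 other fits, 131 kept direction and side of the threshold, 14 kept direction and newly passed, and 7 turned in sign, all of Ccr2. The Ccr2 value of -0.05 became 0.07 with total reads, 0.10 and 0.11 with limma on log2(FPKM + 1) and log2(FPKM + 0.1), 0.06 without TAM-WT replicate 1, 0.05 without TAM-WT replicate 4 and 0.01 without TAM-KO replicate 3. The causes were not tested.

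With the replicate number as a block, 2 receptors passed, Ccr3 and Cx3cr1, at log2 fold changes of -1.27 and 1.34 (adjusted p = 0.023 and 0.0292 from edgeR), against 8.7% of genes; 2 ligands, 0 other receptors and 4 signaling genes passed, and Ccr2 was at 0.11. The labels do not say whether the numbers pair the samples. The deviations of same-numbered libraries correlated at -0.33, 0.02, -0.23 and 0.26. With 4 libraries per group such correlations cannot decide whether they were paired.

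Cxcr2 rests on few reads, and 8 of the 9 receptors were tested on 3 TAM-KO libraries. The 95% intervals give the range of differences that these libraries leave for each receptor.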
